A study of Mus musculus with 8 samples.

Results

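Sertoli cell markers are genes whose transcripts mark the somatic nurse cells of the testis tubule. A list of 35 such genes was followed in Miwi-null and wild-type (WT) testes, out of 21949 genes in the deposited tables. Members were found by gene symbol, and the transcript with the highest mean count over all libraries stood for each gene. All 35 were found, and all 35 were among the 16051 genes that passed the filter on low counts. Membership follows the symbol list and not a threshold on any value, although the list was drawn up with earlier results of these data known.

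The Miwi-null mice lack MIWI, the germ cell Argonaute protein encoded by Piwil1 that binds piRNAs. Both genotypes were of the C57BL/6 strain, and whole testes were taken at postnatal day 24. Total RNA was sequenced from 2 Miwi-null and 2 WT libraries, and ribosome-protected fragments (RPF, or footprints, the mRNA pieces that ribosomes shield from nuclease) from 2 Miwi-null and 2 WT libraries. The labels name neither the null allele nor single animals, and nothing says that the 2 libraries of a group came from separate mice. The p-values then measure library-to-library spread, which may be technical.

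Sertoli cells line the seminiferous tubule, hold germ cells in place through tight, gap and actin-based junctions, and supply them with lactate, retinoids, iron and growth factors. The transcription factors SOX9, SOX8, GATA4, WT1 and SF-1 set up and maintain their identity. Follicle-stimulating hormone from the pituitary acts on them through its receptor and cAMP, and inhibin from Sertoli cells feeds back on the pituitary. Anti-Müllerian hormone, which removes the female duct primordia in the male fetus, falls in Sertoli cells as they mature before puberty.

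Library totals over genes were 12721796 and 11130954 in null RNA, 15592804 and 13874632 in WT RNA, 11662659 and 28334618 in null RPF, and 28054417 and 17735638 in WT RPF. A single count stood for 0.0353 to 0.0898 CPM (counts scaled to a fixed library size), depending on the library. Piwil1 had 46 and 26 RNA counts in the null libraries, against 8215 and 7165 in WT, and 37 and 94 footprint counts in null, against 14206 and 6868 in WT. No marker in the list was at 0 in any library. Clu, the clusterin gene, was the most abundant member, and the members without it summed to 1799 and 1803 CPM in null RNA against 2579 and 2489 CPM in WT RNA. Several members are also expressed by other testis cells: Nr5a1, Amhr2, Dhh, Clu, Ctsl, Gja1, Vim, Tjp1, Kitl and Wnt5a are found in Leydig, myoid, endothelial or germ cells.

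In total RNA, most of the Sertoli markers were lower in Miwi-null testes. Calls were made with edgeR's quasi-likelihood test, at 0.05 after Benjamini-Hochberg adjustment across every gene tested. By that rule 19 of the 35 members fell, where 20.8% of all genes tested fell, and 1 rose, where 16.5% of all genes tested rose. The remaining 15 did not pass. The median log2 change of the members was -0.51 and 29 of 35 lay below 0, beside a median of -0.07 over all genes tested. Both null libraries lay below both WT libraries for 28 members (43.1% of all genes tested did so), and above both for 4 (34.7% of all genes). In this bulk tissue, fewer Sertoli cells, less RNA per Sertoli cell and a changed share of RNA from other cells cannot be told apart.

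In footprints the same list showed a smaller shift. 9 members fell, where 13.3% of all genes tested fell, and 3 rose, where 12.0% of all genes rose. The median log2 change of the members was -0.17, beside -0.005 over all genes tested. The replicate spread behind this member median was 0.228 (SD), larger than the change, and 0.064 behind that in RNA. Translational efficiency (TE), the footprint level relative to the RNA level and tested as the interaction of genotype and assay, rose for 9 members, where 7.33% of all genes tested rose. TE fell for no member in the main edgeR fit, where 7.56% of all genes fell. At an unadjusted p under 0.05, 2 members, Kitl and Cst9, were lower, and DESeq2 called 1, Cst9. The median log2 TE change was 0.27, beside 0.04 over all genes tested, with a replicate spread of 0.236 (SD). The member median was 0.125 without TMM scaling and 0.138 after removal of a trend over coding length. 8 members fell in both RNA and footprints (7.89% of all genes tested did so), and 11 fell in RNA without a called footprint change (12.2% of all genes). 3 had a called change in footprints and not in RNA, namely Cst9, Gata4 and Nr5a1 (9.87% of all genes). Tjp1 rose in both (6.24% of all genes), and 12 members were called in neither assay nor in TE (52.4% of all genes).

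**Figure D1:**
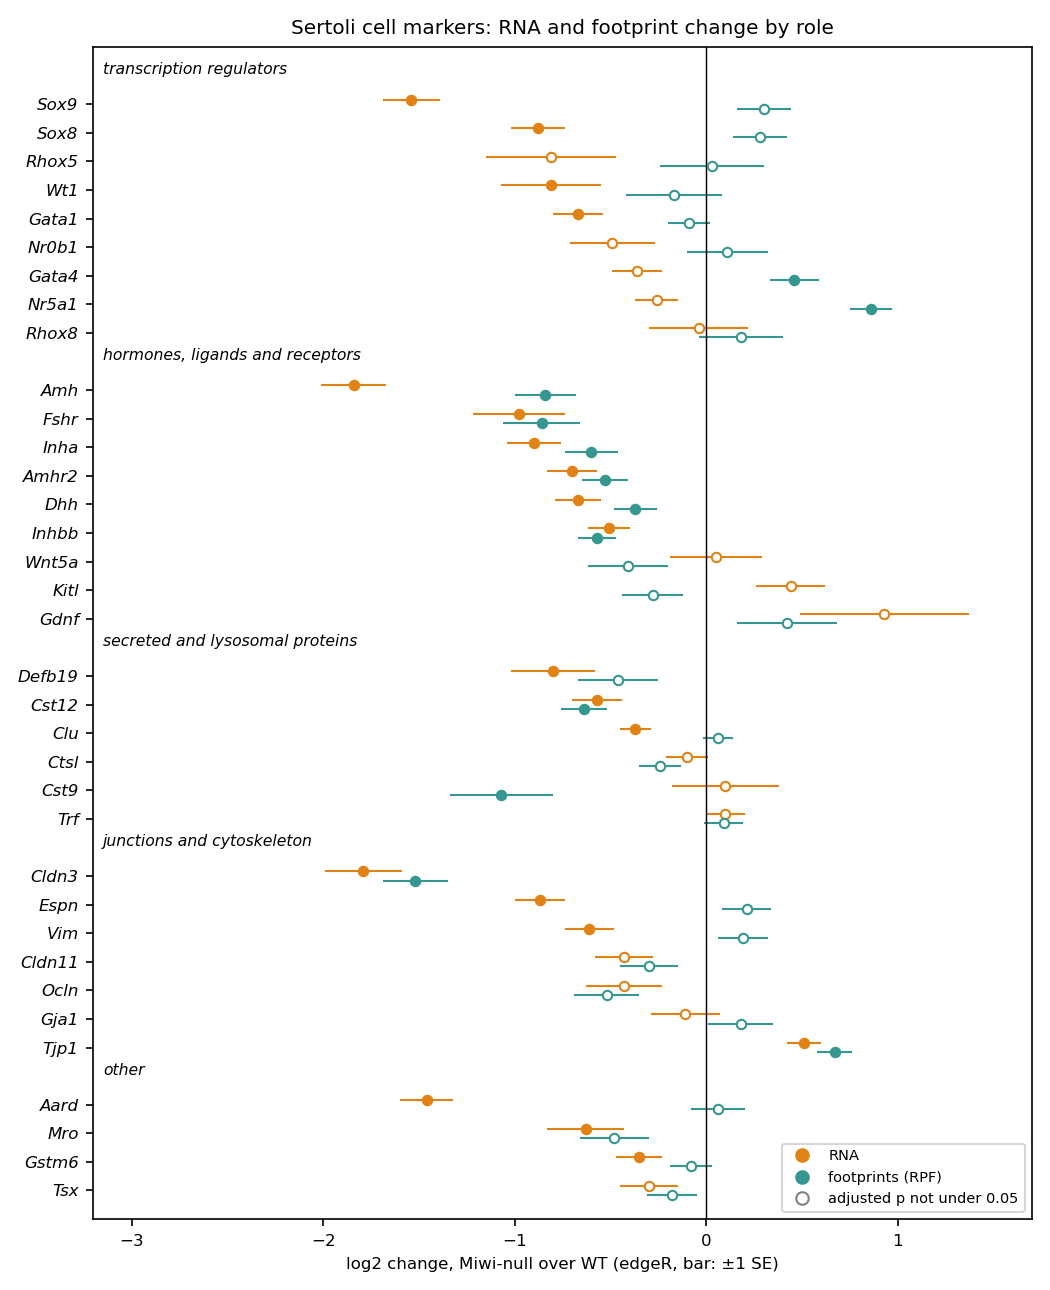
Log2 change of each Sertoli marker, Miwi-null over WT, in RNA and in footprints, grouped by role; bars are ±1 SE of the edgeR fit over 2 libraries per group and open points did not pass. RNA points lie below 0 for 29 of 35 members, and among the transcription regulators the footprint points of Gata4 and Nr5a1 lie above 0.

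Among the 9 transcription regulators, 4 fell in RNA, where 20.8% of all genes tested fell. In footprints 2 rose and in TE 4 rose, beside 12.0% and 7.33% of all genes tested. No regulator moved the other way in any of these contrasts by edgeR, by DESeq2 or at an unadjusted p under 0.05 (0 in each). Sox9, the transcription factor gene that directs and maintains Sertoli identity, lies on chromosome 11 at 112782210 to 112787757 (RefSeq, GRCm38.p6), with a coding length of 1521 bases. Its RNA was 19.5 and 14.7 CPM in null libraries, against 53.7 and 46.0 CPM in WT libraries. Its footprints were 38.9 and 36.1 CPM in null libraries, against 30.4 and 30.5 CPM in WT libraries. Null libraries were thus lower in RNA and slightly higher in footprints, with no overlap in either assay. The RNA level was 2.90-fold lower (log2 -1.54 ± 0.15 SE, edgeR adjusted p = 0.000133), whereas the footprint change did not pass (log2 0.30 ± 0.14 SE, adjusted p = 0.158). The TE change of Sox9 was the largest among the members, at log2 1.84 ± 0.21 (adjusted p = 0.00149).

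Sox8, a close relative of Sox9 that shares its role in adult Sertoli cells, had a like pattern. Its RNA was 18.1 and 18.4 CPM in null against 34.7 and 32.2 CPM in WT, and its footprints were 30.7 and 39.8 CPM in null against 28.1 and 30.4 CPM in WT. The RNA fell by 0.88 ± 0.14 on the log2 scale (edgeR adjusted p = 0.00188) and TE rose by 1.16 ± 0.20 (adjusted p = 0.00784), with a footprint change of log2 0.28 that did not pass. An RNA fall without a called footprint change was also found for Gata1, a zinc finger factor of Sertoli cells as well as blood (RNA log2 -0.67 ± 0.13, footprints -0.09 ± 0.11), and for Wt1, the Wilms tumour factor (RNA -0.81 ± 0.26, footprints -0.17 ± 0.25).

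Nr5a1 encodes SF-1, a nuclear receptor that drives steroid enzyme genes in Leydig cells and Amh in Sertoli cells, and it lies on chromosome 2 at 38692656 to 38714542. Its RNA was 42.8 and 39.2 CPM in null against 50.4 and 47.6 CPM in WT, a difference that did not pass (log2 -0.26 ± 0.11, edgeR adjusted p = 0.102). Its footprints were 83.5 and 96.2 CPM in null against 49.9 and 49.6 CPM in WT. This was the largest footprint rise in the list, 1.81-fold (log2 0.86 ± 0.11, adjusted p = 0.000577), and TE rose by 1.11 ± 0.15 (adjusted p = 0.00333). Gata4, a GATA factor of Sertoli and Leydig cells, had 23.7 and 22.7 CPM of RNA in null against 30.7 and 29.0 CPM in WT, and 22.7 and 25.0 CPM of footprints in null against 18.8 and 15.9 CPM in WT. Its footprints rose by log2 0.46 ± 0.13 (adjusted p = 0.0279) and its TE by 0.82 ± 0.18 (adjusted p = 0.0191).

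Both genes are also expressed in Leydig cells, the steroid-making cells between the tubules. The sum of the 8 Leydig markers rose in footprints, as both genes did. It also rose in RNA, where both genes had null libraries below WT libraries and neither change passed. The markers summed to 2322 and 2333 CPM in null RNA against 1241 and 1227 CPM in WT RNA, and to 8083 and 9016 CPM in null footprints against 2591 and 2488 CPM in WT footprints. Of the 8, 4 rose and 1 fell in RNA and 5 rose in footprints, beside 16.5%, 20.8% and 12.0% of all genes tested. The part of the Leydig cells in the values of Nr5a1 and Gata4 was not tested. The other 3 regulators were called in no contrast: Nr0b1, which encodes the SF-1 partner DAX-1 (RNA log2 -0.49 ± 0.22), and the androgen-responsive homeobox genes Rhox5 (RNA -0.81 ± 0.34) and Rhox8 (RNA -0.04 ± 0.26), whose footprint changes were 0.11, 0.03 and 0.18 in that order.

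**Figure D2:**
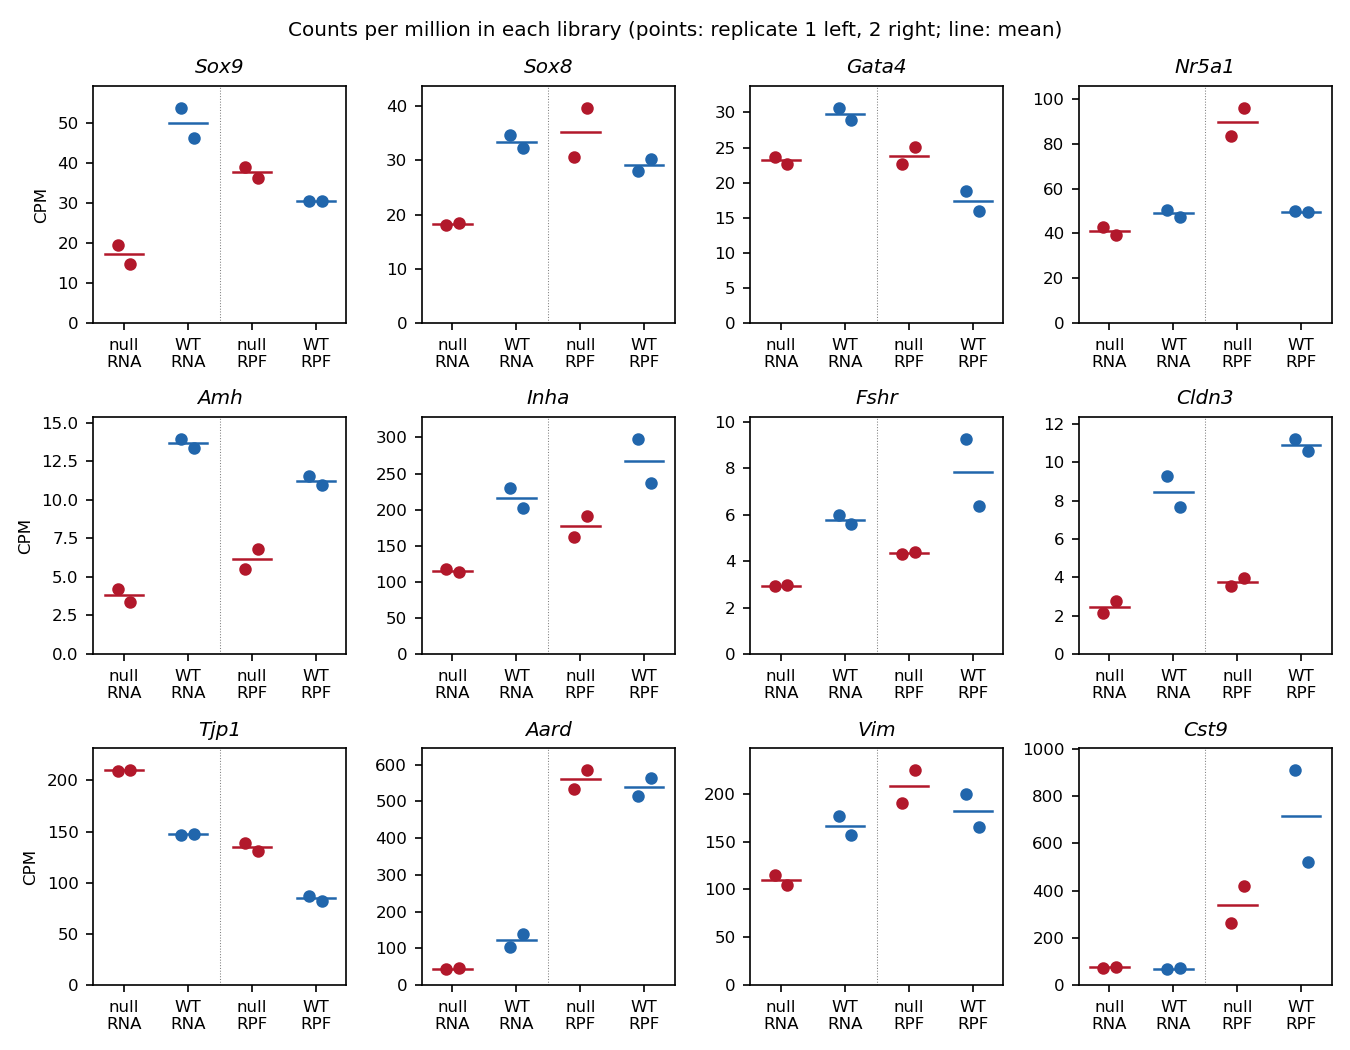
CPM of 12 Sertoli markers in each library, with null left of WT for RNA and then for RPF; points are single libraries and lines are group means. Sox9 and Aard are low in null RNA and level with WT or slightly above it in RPF, whereas Cldn3, Amh and Fshr are low in null in both assays.

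Of the 9 hormones, ligands and receptors, 6 fell in RNA and the same 6 fell in footprints: Amh, Amhr2, Fshr, Inha, Inhbb and Dhh. Over all genes tested, 20.8% fell in RNA, 13.3% in footprints and 7.89% in both. With the footprint libraries fitted without the RNA libraries, Amh and Inhbb kept the footprint call, while Amhr2, Fshr, Inha and Dhh did not (edgeR adjusted p = 0.078 to 0.137). Amh encodes anti-Müllerian hormone and lies on chromosome 10 at 80805240 to 80807679. Its RNA was 4.21 and 3.40 CPM in null against 14.0 and 13.3 CPM in WT, 3.57-fold lower (log2 -1.84 ± 0.17, edgeR adjusted p = 0.000115). Its footprints were 5.54 and 6.83 CPM in null against 11.5 and 10.9 CPM in WT, 1.79-fold lower (log2 -0.84 ± 0.16, adjusted p = 0.00489). Amh had the largest RNA fall of the 35 members, its footprint fall was smaller, and its TE rose by 1.0 ± 0.24 (adjusted p = 0.0261).

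Fshr encodes the receptor for follicle-stimulating hormone and lies on chromosome 17 at 88984952 to 89200675. It was rare, with 38 and 34 RNA counts in null against 89 and 75 in WT. In CPM its RNA was 2.91 and 2.96 in null against 5.98 and 5.58 in WT, a fall of 0.98 ± 0.24 on the log2 scale (edgeR adjusted p = 0.012). Its footprints were 4.29 and 4.37 CPM in null against 9.27 and 6.35 CPM in WT, a fall of 0.86 ± 0.20 (adjusted p = 0.0139). The null libraries lay together and below both WT libraries in each assay, while the WT footprint libraries were apart from each other. The inhibin alpha subunit gene Inha had 117 and 114 CPM of RNA in null against 230 and 203 CPM in WT, and 162 and 191 CPM of footprints in null against 298 and 237 CPM in WT. It fell by 0.90 ± 0.14 in RNA (adjusted p = 0.00131) and by 0.60 ± 0.14 in footprints (adjusted p = 0.0129).

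Inhbb, which encodes the beta B subunit that pairs with inhibin alpha to give inhibin B, fell by nearly the same amount in RNA (0.51 ± 0.11) and in footprints (0.57 ± 0.10). Amhr2, the receptor of anti-Müllerian hormone, fell by 0.70 ± 0.13 and by 0.53 ± 0.12, and Dhh, the hedgehog ligand that Sertoli cells send to Leydig and myoid cells, by 0.67 ± 0.12 and by 0.37 ± 0.11. The other 3 ligand genes did not pass in any contrast. Kitl, whose product stem cell factor binds KIT on spermatogonia, had RNA log2 0.44 ± 0.18 and footprints -0.28 ± 0.16. Gdnf, the growth factor of spermatogonial stem cells, had at most 8 RNA counts in a library and an RNA change of log2 0.93 ± 0.44. Wnt5a had an RNA change of 0.05 ± 0.24.

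The promoter windows of the receptor genes show sequence before annotated starts of members that fell together. RefSeq promoter windows (GRCm38.p6), 29 in all, were found for 23 of the 35 members, and the 250 bases before each start were searched on both strands. The Fshr window, chr17:89200676-89200925 on the minus strand, is shown because it holds an E-box, CACGTG, the kind of element known to carry basal Fshr transcription, here in capitals.
Fshr: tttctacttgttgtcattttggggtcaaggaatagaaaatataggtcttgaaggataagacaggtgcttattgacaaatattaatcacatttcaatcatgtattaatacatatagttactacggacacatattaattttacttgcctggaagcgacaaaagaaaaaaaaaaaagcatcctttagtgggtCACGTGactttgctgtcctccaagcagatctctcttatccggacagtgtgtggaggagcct
The E-box lies 61 to 56 bases upstream of the start. CACGTG was also found in the windows of Sox8 and Ctsl, so that 3 of 29 member windows held it (10.3%), beside 6.02% of all 32851 promoters. This motif was added after the data had been seen.

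Of the other matches, 3 stretches of 30 bases are shown as examples, an SF-1 and a GATA match and the E-box of Sox8, with the match in capitals. The SF-1 motif AAGGTCA was found in the window of Amhr2 alone (chr15:102445124-102445153, plus strand). The GATA motif AGATAA, here as its reverse complement TTATCT, was found in the window of Gja1 (chr10:56377153-56377182, plus strand) and in a window of Gdnf. The E-box of Sox8 lies at chr17:25570821-25570850 on the minus strand.
Amhr2: gcaccttcttccAAGGTCAgtaggggtaga
Gja1: gaaactacaactTTATCTtgaccaggttgc
Sox8: gggcgcctggccCACGTGgtacggagggtg
AAGGTCA stood in 4.08% of all promoters and AGATAA in 9.99%, and 1 and 2 of the 29 member windows held them. The SOX motif AACAAT stood in the windows of Ctsl and Rhox5 and in 9.42% of all promoters. The Amhr2 and Ctsl windows and the Gdnf window with the match lie inside the spans given for these genes, not ahead of them. Amhr2, for example, spans 102445002 to 102454640 on chromosome 15. The cAMP response element TGACGTCA stood in 1.55% of all promoters and in none of the 29 member windows. The matches are descriptions of letters in these windows only.

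The junction and cytoskeleton genes went different ways. Cldn3 encodes a claudin of newly formed tight junctions of the blood-testis barrier. Its RNA was 2.14 and 2.79 CPM in null against 9.27 and 7.67 CPM in WT, 3.45-fold lower (log2 -1.79 ± 0.20, edgeR adjusted p = 0.00027). Its footprints were 3.57 and 3.95 CPM in null against 11.2 and 10.6 CPM in WT, 2.87-fold lower (log2 -1.52 ± 0.17, adjusted p = 0.00031), the largest footprint fall in the list. Tjp1 encodes the scaffold protein ZO-1 and was the single member that rose in RNA. It had 209 and 211 CPM of RNA in null against 147 and 148 CPM in WT, and 139 and 131 CPM of footprints in null against 87.1 and 82.5 CPM in WT. The rise was 0.51 ± 0.09 in RNA (adjusted p = 0.00237) and 0.67 ± 0.09 in footprints (adjusted p = 0.000716).

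Espn encodes espin, which bundles actin in the ectoplasmic specialisations that Sertoli cells form against elongating spermatids and against each other. Its RNA was 144 and 154 CPM in null against 297 and 247 CPM in WT, a fall of 0.87 ± 0.13 (edgeR adjusted p = 0.00121). Its footprints were 159 and 185 CPM in null against 160.3 and 138 CPM in WT and overlapped, and TE rose by 1.07 ± 0.18 (adjusted p = 0.00783). Vimentin, the intermediate filament protein encoded by Vim, had 115 and 104 CPM of RNA in null against 176 and 157 CPM in WT. Its footprints were 191 and 225 CPM in null against 199 and 165 CPM in WT. RNA fell by 0.61 ± 0.13 (adjusted p = 0.00758) and TE rose by 0.80 ± 0.19 (adjusted p = 0.0249). Some of the 10 myoid markers share cells with Vim. The 10 summed to 201 and 200.3 CPM in null RNA against 668 and 638 CPM in WT RNA. Of the 10, 9 fell in RNA, where 20.8% of all genes tested fell. The part of the myoid markers in the Vim values was not tested.

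Gja1 encodes connexin 43, the main gap junction protein between Sertoli cells. Its RNA was 48.9 and 50.7 CPM in null against 55.5 and 52.1 CPM in WT (log2 -0.11 ± 0.18, edgeR adjusted p = 0.656). Its footprints were 221 and 170.2 CPM in null against 144 and 201 CPM in WT and overlapped (log2 0.18 ± 0.17, adjusted p = 0.484). Cldn11, the claudin that the barrier cannot be built without, had RNA log2 -0.43 ± 0.15 with an adjusted p of 0.0505, and the occludin gene Ocln had footprints of log2 -0.52 ± 0.17 with an adjusted p of 0.0508, both just outside the threshold.

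Of the 6 secreted and lysosomal proteins, 3 fell in RNA (Clu, Cst12 and Defb19) and 2 in footprints (Cst12 and Cst9). Over all genes tested, 20.8% fell in RNA and 13.3% in footprints. Clu, the gene of the secreted chaperone clusterin, had 979.7 and 992 CPM of RNA in null against 1305 and 1247 CPM in WT, and fell by 0.37 ± 0.08 in RNA, while its footprints, 3390 and 3343 CPM in null against 3136 and 3308 CPM in WT, did not pass. Its TE rose by 0.44 ± 0.11 (edgeR adjusted p = 0.0305). Cst12 and Cst9 encode cystatin-related secreted proteins and are neighbours on chromosome 2. Cst12 had 30.4 and 31.1 CPM of RNA in null against 41.4 and 50.2 CPM in WT, and 798 and 660.3 CPM of footprints in null against 1087 and 1189 CPM in WT, and fell in both (log2 -0.57 ± 0.13 and -0.64 ± 0.12). Cst9, also called testatin, had 72.9 and 75.6 CPM of RNA in null against 67.4 and 71.5 CPM in WT, with no called RNA change. Its footprints were 262 and 419 CPM in null against 913 and 522 CPM in WT, a fall of 1.07 ± 0.27 (adjusted p = 0.0224). Cst9 was the single member whose footprints fell with no called RNA change, and its libraries spread widely within each genotype.

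Defb19, a beta-defensin gene of Sertoli cells, fell in RNA (log2 -0.80 ± 0.22), with footprints of -0.46 ± 0.21 that did not pass. The transferrin gene Trf, which supplies iron to germ cells, and Ctsl, which encodes the protease cathepsin L, passed in no contrast, with RNA changes of 0.10 ± 0.10 and -0.10 ± 0.11.

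Of the remaining 4 genes, 3 fell in RNA, where 20.8% of all genes tested fell. No footprint change of the 4 passed by edgeR or DESeq2 (Mro alone had an unadjusted p under 0.05). By edgeR, 25.4% of all genes tested passed in footprints. Aard, a small gene named for the alanine and arginine rich domain of its product, had 43.1 and 45.6 CPM of RNA in null against 104 and 139 CPM in WT, 2.75-fold lower (log2 -1.46 ± 0.14, edgeR adjusted p = 0.000137). Its footprints were 534 and 587 CPM in null against 515 and 562 CPM in WT, and overlapped (log2 0.06 ± 0.14). After Sox9 it had the largest TE rise of the list, 1.52 ± 0.20 (adjusted p = 0.00256). Mro, known as maestro, and the glutathione transferase gene Gstm6 fell in RNA by 0.63 ± 0.20 and by 0.35 ± 0.12, and Tsx, an X-linked testis gene, passed in no contrast (RNA log2 -0.30 ± 0.15).

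**Figure D3:**
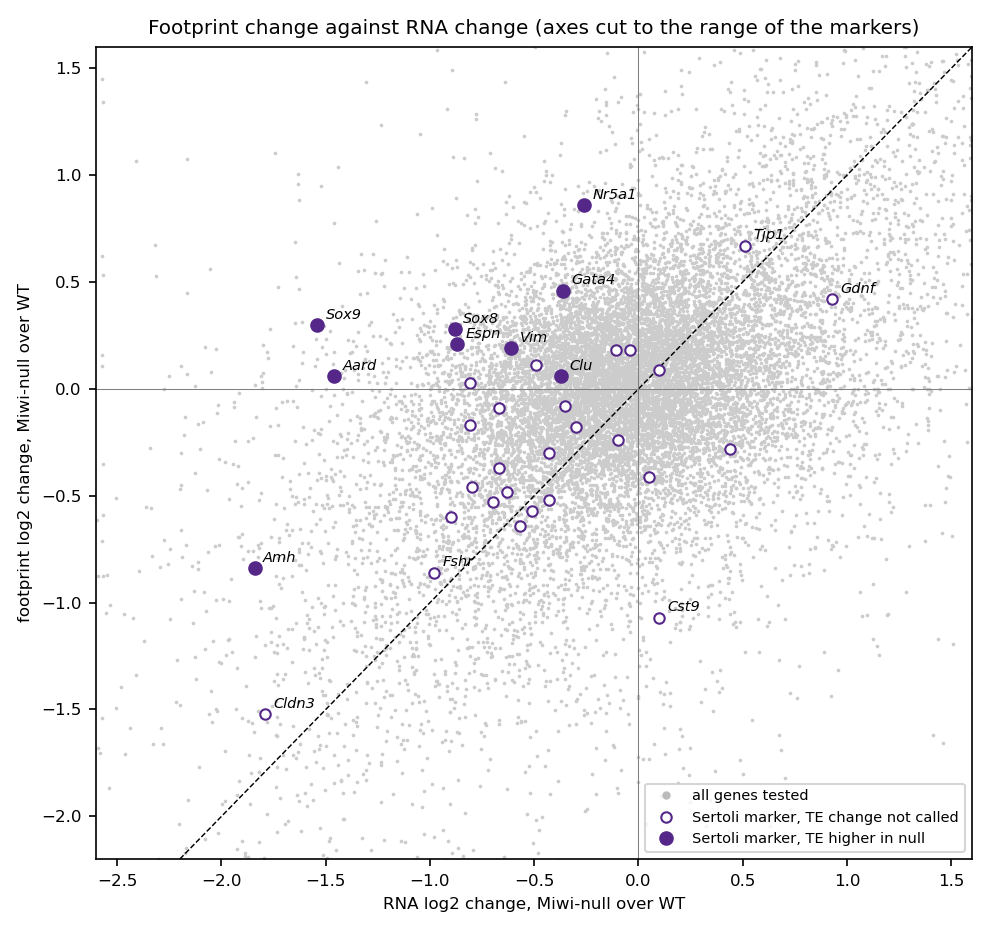
Footprint log2 change against RNA log2 change, Miwi-null over WT, for the 35 Sertoli markers over all genes tested (grey); the dashed line marks equal change. The 9 markers with a called TE rise, among them Sox9, Aard and Nr5a1, lie above the line, and Cldn3 lies near it at -1.79 in RNA and -1.52 in footprints.

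Of the 19 members that fell in RNA, 7 rose in TE: Sox9, Sox8, Amh, Clu, Aard, Espn and Vim. Of the 3343 genes in the whole series that fell in RNA, 889 rose in TE, and these 889 were 5.54% of all genes tested. RNA enters TE with the opposite sign, so a low RNA value by itself raises TE, and the paired calls are not independent of each other. The ratio of footprint FPKM to RNA FPKM (fragments scaled to length and library size) divides out the coding length. In it Sox9 stood at 2.23 and 2.91 in null against 0.723 and 0.803 in WT. Aard stood at 13.9 and 15.3 in null against 6.32 and 4.89 in WT, and Nr5a1 at 2.19 and 2.91 in null against 1.27 and 1.26 in WT. Both null ratios lay above both WT ratios for 13 members (24.6% of the genes with a ratio in each replicate did so) and below both for 6 (32.7% of those genes). On this scale the median member ratio was 2.55 in null and 2.14 in WT, beside 1.18 in null and 1.27 in WT over all genes tested. The highest level was that of Cst12 (27.3 in null, 31.2 in WT), which has a coding length of 384 bases. The lowest were Tjp1 in null (0.744) and Espn in WT (0.683), with coding lengths of 5055 and 2613 bases. Not every short member was high: Cldn3, at 657 bases, stood at 1.77 in null and 1.62 in WT. Mean insert sizes were 244.5 to 287.6 bases in RNA and 28.5 bases in footprints. The part of coding length in these levels was not tested.

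**Figure D4:**
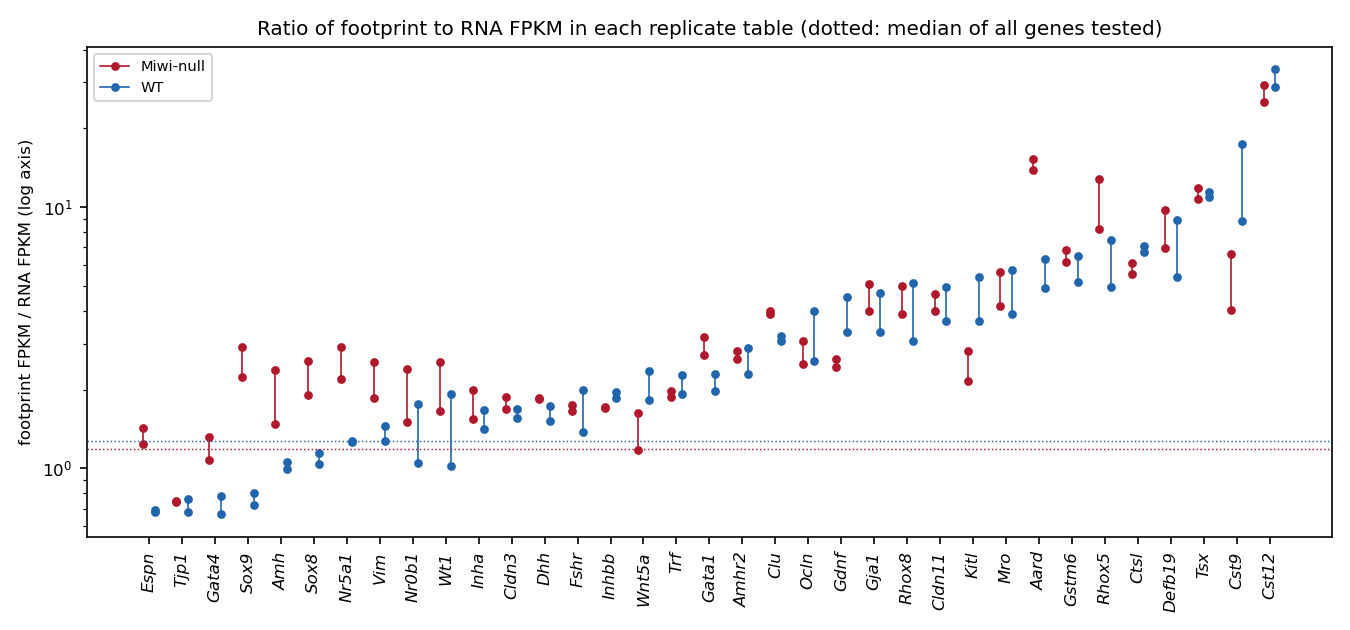
Ratio of footprint FPKM to RNA FPKM for each Sertoli marker in each replicate table on a log axis, Miwi-null beside WT, with lines joining the 2 replicate values and dotted lines at the median of all genes tested. Ratios run from below 1 for Tjp1 to above 25 for Cst12, and the null points of Sox9 lie above 2, against WT points below 1.

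Genes that work with the Sertoli markers were read from 4 lists, and some of them act in germ cells (Kit, Ret and Gfra1 are germ cell receptors). The shares of all genes tested that fell and rose were 20.8% and 16.5% in RNA, 13.3% and 12.0% in footprints, and 7.56% and 7.33% in TE. Of 23 junction genes tested, 7 fell in RNA (30.4%), 5 fell (21.7%) and 3 rose (13.0%) in footprints, and 1 fell (4.35%) and 4 rose (17.4%) in TE, with median log2 changes of -0.21, -0.12 and 0.14. No junction gene rose in RNA by edgeR or DESeq2, and 2 were higher at an unadjusted p under 0.05. Actn4, an actin crosslinker, and Cgn, which encodes the tight junction protein cingulin, fell in RNA by 1.27 ± 0.15 and by 0.81 ± 0.16. They rose in TE by 1.15 ± 0.21 and by 1.40 ± 0.23. The footprints of Cgn rose by 0.59 ± 0.16, while the footprint change of Actn4 did not pass (-0.12 ± 0.15). Lamc3, a laminin chain gene, fell in both assays (RNA -0.90 ± 0.12, footprints -0.76 ± 0.12). Cldn5, another claudin, fell in footprints (-0.88 ± 0.21), as did the adhesion gene Nectin3 (-0.87 ± 0.10), whose TE fell by 1.13 ± 0.14. Nectin3 is used by spermatids, and which cells its values come from was not tested.

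Of 23 signalling genes tested, 3 fell and 3 rose in RNA (13.0% each), 3 fell (13.0%) and 2 rose (8.70%) in footprints, and 2 fell in TE (8.70%), shares near or below those of all genes. Fst, whose product follistatin binds activin, rose in RNA by 2.53 ± 0.40 and in footprints by 1.21 ± 0.23. It was rare, at 2.22 and 1.48 CPM of RNA in null against 0.403 and 0.223 CPM in WT. These rest on 29 and 17 RNA counts in null against 6 and 3 in WT. Nr4a1, a nuclear receptor gene induced by cAMP, fell in RNA (-1.17 ± 0.15), and Prkar2b, a regulatory subunit gene of the cAMP-dependent kinase, fell in RNA (-0.71 ± 0.17) and footprints (-0.88 ± 0.14). Bmpr1a, a receptor for bone morphogenetic proteins, fell in footprints (-0.75 ± 0.13) and TE (-1.08 ± 0.19), and Smad4, the shared signal carrier of that family, rose in RNA (0.47 ± 0.10) and fell in TE (-0.48 ± 0.14) with footprints at -0.01 ± 0.09.

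Of 24 genes for metabolic, retinoid and phagocytic support, 9 fell (37.5%) and 3 rose (12.5%) in RNA, 4 fell (16.7%) and 5 rose (20.8%) in footprints, and 2 rose in TE (8.33%). Slc16a3, a lactate transporter gene, fell by 1.73 ± 0.20 in RNA and by 1.53 ± 0.17 in footprints. Rdh10, which makes retinal from retinol, fell by 1.61 ± 0.14 and by 1.22 ± 0.13, and Stra6, the retinol uptake receptor, fell by 1.07 ± 0.17 in RNA. Fabp3, a fatty acid binding protein gene, rose in RNA by 1.02 ± 0.08 and in footprints by 1.30 ± 0.08. Ldhb, for the lactate dehydrogenase B chain, fell in RNA by 0.63 ± 0.09 and rose in TE by 0.77 ± 0.12.

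Of 15 other transcription and Notch genes tested, 7 fell (46.7%) and 4 rose (26.7%) in RNA, 2 fell and 2 rose in footprints (13.3% each), and 1 fell and 1 rose in TE (6.67% each). Ptgds, the prostaglandin D synthase gene linked to SOX9, stood at 220.1 and 224 CPM of RNA in null against 20.0 and 19.4 CPM in WT, a rise of 3.50 ± 0.11, and rose in footprints by 3.75 ± 0.11. It moved opposite to the RNA of Sox9, and Ptgds is expressed in Leydig cells too, whose markers rose as given above; their part was not tested. Jag1, a Notch ligand gene, fell in both (RNA -1.50 ± 0.13, footprints -1.52 ± 0.13). Zfpm2, the GATA4 cofactor FOG2, rose in RNA (1.42 ± 0.15) and fell in TE (-0.90 ± 0.23), with footprints at 0.52 ± 0.17 that did not pass. Dmrt1, a sex determination factor of Sertoli cells and spermatogonia, fell in RNA (-1.12 ± 0.17) and rose in TE (0.87 ± 0.23).

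Summed markers of other cell types differed between the genotypes by unlike amounts. Markers of late spermatids summed to 1479 and 1474 CPM in null RNA against 13967 and 13812 CPM in WT RNA. In footprints they summed to 73.3 and 70.5 CPM in null against 6502 and 6399 CPM in WT. The 8 endothelial markers summed to 48.1 to 48.9 CPM in null RNA against 61.9 to 69.6 CPM in WT RNA, and the 9 macrophage markers to 198 to 202 CPM in null RNA against 235 to 256 CPM in WT RNA. By edgeR, 2 macrophage markers were called higher in null RNA (Adgre1 and Lyz2) and 1 lower (Aif1), so the calls do not follow that sum. The 8 spermatogonial markers summed to 479 to 484 CPM in null RNA against 602 to 702 CPM in WT RNA, and the 8 spermatocyte markers to 2019 to 2057 CPM in null RNA against 1693 to 1773 CPM in WT RNA. The spermatocyte list includes Piwil1, and its other 7 markers summed to 2054 and 2016 CPM in null RNA against 1141 and 1240.0 CPM in WT RNA. By edgeR, 3 endothelial markers (list range log2 -1.98 to 0.6) and 4 spermatogonial markers (-1.39 to 0.22) were called lower in null RNA. Of the spermatocyte markers 5 were called higher and 1, Piwil1, lower. Over all genes tested, 16.5% were called higher and 20.8% lower in null RNA. The most abundant markers of these 3 lists were Vwf, Dmrtb1 and Tex101, which weigh most in the sums. The part of these summed differences in the Sertoli values was not tested.

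Leaving out a library ended some of these calls, while every called member kept its direction. The RNA count of 20 was 13 and 11 without null RNA replicate 1 and 2, 12 without WT RNA replicate 1, and 15 without WT RNA replicate 2. The RNA calls of Wt1, Defb19, Mro and Gstm6 were lost without any of the 4 RNA libraries (edgeR adjusted p = 0.0841 to 0.202), and that of Gstm6 also without null RPF replicate 2. Those of Clu and Fshr were lost without either null RNA library or WT RNA replicate 1, that of Cst12 without either null RNA library or WT RNA replicate 2, and those of Inhbb and Vim without null RNA replicate 2 or WT RNA replicate 1 (adjusted p = 0.0503 to 0.0835). The RNA calls of Sox9, Sox8, Gata1, Amh, Amhr2, Cldn3, Aard, Inha, Dhh, Espn and Tjp1 stood in all 17 alternatives planned.

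In footprints Amh, Cldn3, Inhbb, Nr5a1 and Tjp1 stood in all 17 alternatives planned (edgeR and DESeq2). Fshr was lost without null RPF replicate 2 (adjusted p = 0.0749) or WT RPF replicate 1 (0.091, where its change was -0.51), Inha without null RPF replicate 1 (0.0684) or WT RPF replicate 1 (0.054, at -0.39), and Amhr2 without null RPF replicate 2 (0.0909). Without WT RPF replicate 2 the Amhr2 change was -0.34. Cst9 was lost without null RPF replicate 1 (0.087) or WT RPF replicate 1 (0.0904, at -0.57) and without either WT RNA library (0.0508 to 0.0512). Dhh lost its call without any library but WT RPF replicate 1 (0.0619 to 0.161), and Gata4 without any RNA library, null RPF replicate 2 or WT RPF replicate 2 (0.0546 to 0.121). With the footprint libraries fitted without the RNA libraries, 5 members passed, 2 higher and 3 lower.

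The TE count of 9 was 3 without null RNA replicate 1 or WT RNA replicate 1, and 5 without null RNA replicate 2 or WT RNA replicate 2. TE calls of Sox9, Aard and Nr5a1 stood in all 16 alternatives planned. Those of Amh, Clu, Vim and Gata4 were lost without any of the RNA libraries or null RPF replicate 2 (edgeR adjusted p = 0.0614 to 0.18), that of Clu also without null RPF replicate 1 (0.0605), and those of Sox8 and Espn without null RNA replicate 1 or WT RNA replicate 1 (0.0517 to 0.0599). Without TMM scaling 5 members passed, all higher. With the trend over coding length removed, edgeR called 8 members higher in TE and 1, Cst9, lower. Leaving out 1 library each, TE changes ran from -1.6 to -0.74 for Cst9 and from -0.97 to -0.57 for Kitl.

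The footprint libraries of the genotypes also deviated in pairs. Across genes, the difference of replicate 1 and 2 in null footprints correlated at r = -0.657 with that in WT footprints (genes are not independent replicates), against -0.04 to 0.0338 for the other pairs of groups. The deeper libraries, null replicate 2 and WT replicate 1, thus deviated together, as did the shallower ones. Depth, a shared batch and crossed replicate numbers cannot be told apart here. A fit with the numbers crossed as a block called 26 members in footprints in place of 12. The calls over all genes tested grew alike, to 8183 in place of 4073. Within the deeper pair and within the shallower pair, 31 of all 35 members had the same sign, and 81.2% of all genes tested. The 12 called members are among them, but so are 100% of all genes called in footprints, since the calls rest on these same libraries. Cst9 was -1.12 in the deeper pair and -0.99 in the shallower pair, Nr5a1 0.95 and 0.75, and Fshr -1.09 and -0.57. Both the split and the crossed block were chosen after the data had been seen.

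RNA fragments were longer in the null libraries, with mean insert sizes of 287.6 and 284 bases in null against 266 and 244.5 bases in WT. Over all genes, short coding lengths went with lower null RNA: the fitted trend was -0.27 on the log2 scale at 507 bases and 0.06 at 3495 bases. With that trend removed, the RNA calls of Cst12 (384 bases, log2 -0.22, adjusted p = 0.243), Defb19 (249 bases, -0.30, 0.325), Mro (738 bases, -0.47, 0.0956) and Gstm6 (654 bases, -0.17, 0.308) were lost. The changes of Cst12, Defb19 and Gstm6 were -0.57, -0.80 and -0.35 with the trend kept. After its removal 15 members were called lower and 2 higher, Tjp1 and Kitl. Aard, at 501 bases, was still called lower in RNA.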

How the data were processed

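The sample titles gave genotype, assay and replicate number. The authors deposited whole-number fragment counts per transcript and FPKM values in 1 table per replicate number, per the file headers; a merged table was not used. FPKM values were used only for the ratio of footprint to RNA level, as deposited by the authors. The deposited coding length was in bases; 90.0% of all lengths were multiples of 3. Per the submitters' processing notes, the tools were STAR 2.5.0a, Bowtie 1.2.2 and cutadapt 2.5, with no role given, and the build was GRCm38. Which program counted fragments, and whether by strand or with multiply mapping ones, is not given in the sources used here, so reads of overlapping or antisense genes cannot be told apart.

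Counts summed over all transcripts were 2.232 to 2.395 times those of 1 transcript per gene, so the transcript with the highest mean count stood for each gene. Counts were fitted in R 4.3.3 with edgeR 4.0.16 (filterByExpr, minimum count 10 and minimum total 15; TMM over 8 libraries; robust quasi-likelihood, 4 groups, 4 residual degrees of freedom), and DESeq2 1.42.0 was an alternative. CPM values are relative to TMM-scaled library sizes. All changes are relative to the bulk of genes. The single dispersion per gene is shared by both assays, although footprint replicates spread more than RNA replicates: the chi-square per gene between replicates was 1.18 in null RNA, 3.86 in WT RNA, 22.6 in null RPF and 44.7 in WT RPF. The replicates of each group differed by more than counting noise and were counted as 2 libraries.

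The members, their role groups and the partner and cell type lists were chosen with earlier results of these data known, and no list was tested as a whole. All 35 members are reported. Values per library are given for up to 8 called members with the largest change per contrast and for Sox9, Amh, Fshr, Inha, Vim and Gja1, and also, chosen after their values were seen, for Clu. Of each partner list up to 3 called genes per contrast are named, apart from some that are not reported here. Where leaving out a library left 1 in a group, it was assumed to vary like the other groups. Dsg2, Inhba and Fgf9 of the partner lists did not pass the filter.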

Additional observations from a re-analysis of the deposited data

How the results depend on the processing

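Over the Sertoli markers, every called change in RNA, RPF and TE kept its direction under each setting tried before the crossed block. The median RNA change of the members, -0.51, was -0.415 without TMM, -0.446 when TMM was set assay by assay, and -0.391 with the length trend removed; that in TE, 0.272, was 0.125 without TMM and 0.138 with the length trend removed. The cause was not tested. The count of members called in footprints was 5 with footprint libraries fitted alone, and the TE count 5 without TMM. Over all genes, fitting an assay alone called 9041 in RNA and 1983 in RPF. Without TMM 55.1% of RNA calls and 29.2% of TE calls were higher in null, against 44.1% and 49.2% with it; with TMM within each assay the TE share was 39.0%, and the median RNA change of all genes moved from -0.074 to 0.021 without TMM. Leaving out 1 library each gave 11 to 24 members called in RNA, 8 to 15 in RPF and 3 to 13 in TE; 3244 to 7095 genes in RNA, 2939 to 5170 in RPF and 620 to 3636 in TE; and member medians of -0.542 to -0.445 in RNA, -0.173 to -0.094 in RPF and 0.217 to 0.365 in TE. Replicate numbers share only a number between groups. With the replicate block, 17 members were called in RNA, 10 in RPF and 6 in TE, and 1237 genes in TE. The crossed replicate block, chosen after seeing the data, called 28 members in RNA, 26 in RPF and 19 in TE, and 9102, 8183 and 6539 genes.

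Signs turned only for changes that did not pass. Rhox8 in RNA was 0.06 without TMM, 0.03 with TMM within each assay, 0.02 fitted alone and 0.07 with the length trend removed, where Tsx was 0.02 and Ctsl 0.01; Rhox5 in RPF was -0.02 without TMM. In TE without TMM, Cldn11 was -0.02, Fshr -0.03, Tsx -0.03 and Mro -0.0; with the length trend removed Cldn11 was -0.02, Defb19 -0.06 and Tsx -0.13. Leaving out 1 library each, RNA changes ran from -0.11 to 0.03 for Rhox8 and -0.21 to 0.38 for Wnt5a. RPF changes ran from -0.5 to 0.31 for Wt1, -0.3 to 0.48 for Rhox5, -0.12 to 0.58 for Rhox8, -0.21 to 0.11 for Gstm6, -0.17 to 0.49 for Nr0b1 and -0.01 to 0.44 for Gja1. TE changes ran from -0.02 to 0.36 for Amhr2, -0.14 to 0.63 for Rhox8, -0.08 to 0.33 for Cldn11, -0.11 to 0.4 for Fshr, -0.11 to 0.01 for Inhbb, -0.21 to 0.07 for Cst12, -0.03 to 0.28 for Tsx, -0.09 to 0.06 for Trf, -0.11 to 0.39 for Mro and -0.3 to 0.13 for Ocln. Depth limits Gdnf, with 4 to 8 RNA counts a library.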
